A study of Mus musculus with 384 samples.

Results

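The 10 genes described here are immediate early genes of the EGR, NR4A and IER families together with Srf, taken by name (Egr1, Egr2, Egr3, Nr4a1, Nr4a2, Nr4a3, Ier2, Ier3, Ier5 and Srf) from 22350 protein-coding genes of the mouse annotation. Their members on the chromatin side are the accessible windows whose centre lies within 50 kb of any annotated start site of each gene. These were 100 of the 50000 windows of the deposited list, and no window fell to more than 1 of the genes. Windows centred no more than 1 kb from a start site are called promoter windows.

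The windows come from 1 breast tumor of the MMTV-PyMT mouse, in which a viral promoter active mainly in mammary epithelium drives the polyoma middle T oncogene. Tumor cells were fixed, stained for EpCAM (an epithelial surface protein) and CD45 (a leukocyte surface protein), and sorted singly into 384 wells on 4 plates of 96 for Pi-ATAC, which cuts open chromatin with a transposase in cells whose protein stain is known. All wells carry the same labels and form 1 group, the stain of each well is not in the labels, and the authors called windows once on the aggregate of cells. The list therefore has no replicate, score or count, a window can come from tumor cells, leukocytes or both, and every statement below is a count set beside the same count over all genes or all windows, with no test. Intervals are exact binomial 95% intervals, the share that a count of 0 allows is given as 3 counts of the total, and both cover counting error only. As a check of the labels, chosen for that purpose, 1 of 4 epithelial markers (Cdh1, with Epcam, Krt8 and Krt18 lacking one) and 2 of 4 leukocyte markers (Coro1a and Laptm5, with Ptprc and Cd68 lacking one) had a promoter window, against 0 of 4 genes of other tissues (Alb, Ins2, Myh6 and Gfap). Of all protein-coding genes 43.5% had one, so with 4 genes of each kind these counts do not show which cells were present. Within 50 kb Epcam had 9 windows and Ptprc, which encodes CD45, had 4, but Gfap had 5 as well, so the count within 50 kb does not separate these markers.

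Immediate early genes are transcribed within minutes of a growth factor, stress or calcium signal, without new protein synthesis. At many of them SRF binds a serum response element whose core is the CArG box, often beside an Ets site that a ternary complex factor such as ELK1 occupies once MAP kinases phosphorylate it. CREB at cyclic AMP response elements (CRE) and MEF2 at its AT-rich sites are further inputs, MEF2 above all at Nr4a1. EGR proteins are zinc finger factors that bind GC-rich DNA, NR4A proteins are orphan nuclear receptors that bind DNA as monomers or dimers, and the IER genes encode small proteins that are not DNA-binding factors of a known family.

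The sequences of accessible windows that carry the main pattern, CArG boxes at the EGR genes and at Srf itself, are shown first. They were read from the NCBIM37 genome, which is mm9, in the direction of transcription of each gene, with the CArG boxes in capitals.
Srf CArG, chr17:46693124-46693233, minus strand: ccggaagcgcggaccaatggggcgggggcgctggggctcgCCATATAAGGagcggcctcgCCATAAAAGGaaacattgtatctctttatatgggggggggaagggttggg
Egr2 CArG, chr10:67000217-67000276, plus strand: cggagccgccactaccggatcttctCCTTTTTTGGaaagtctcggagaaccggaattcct
Egr2 CArG, chr10:67000520-67000579, plus strand: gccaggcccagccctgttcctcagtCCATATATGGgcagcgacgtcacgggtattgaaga
Egr3 CArG, chr14:70465895-70465954, plus strand: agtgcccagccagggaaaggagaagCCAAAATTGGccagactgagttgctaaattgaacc
The Srf stretch holds 2 boxes, centred 57 and 77 bp before the start site (-57 and -77), followed upstream by the EGR variant GCGGGGGCG at -97 and the Ets core CCGGAAG at -119. The 2 Egr2 boxes lie at -371 and -68 in 1 window, and the Egr3 box shown lies far upstream, at -11328. Egr1 is described by positions only.

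The NR4A genes and Ier2 carried other words. Below, the MEF2 words of the NR4A windows nearest the start sites and the complete CRE, TGACGTCA, of Nr4a2 and Ier2 are in capitals, each in the direction of transcription.
Nr4a1 MEF2, chr15:101096953-101097046, plus strand: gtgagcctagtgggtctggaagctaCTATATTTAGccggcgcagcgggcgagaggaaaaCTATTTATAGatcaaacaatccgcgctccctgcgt
Nr4a2 MEF2, chr2:56976547-56976606, minus strand: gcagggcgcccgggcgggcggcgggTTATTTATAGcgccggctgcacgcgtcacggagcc
Nr4a3 MEF2, chr4:48056105-48056164, plus strand: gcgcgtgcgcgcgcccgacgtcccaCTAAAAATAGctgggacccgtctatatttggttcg
Nr4a2 CRE, chr2:56967464-56967521, minus strand: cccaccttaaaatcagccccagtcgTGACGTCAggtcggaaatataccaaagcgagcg
Ier2 CRE, chr8:87186764-87186821, minus strand: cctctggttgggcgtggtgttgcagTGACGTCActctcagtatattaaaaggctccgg
The Nr4a1 stretch holds 2 MEF2 words, at -295 and -261, inside its promoter window. The MEF2 word of Nr4a2 lay at -162 and that of Nr4a3 at -1891. The complete CRE stood at nearly the same distance from a start site in both genes that have it in a promoter window, -43 at an internal start site of Nr4a2 and -41 at Ier2.

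Accessible windows at the start sites and around them were more numerous at these genes than at most genes. A promoter window was present at 9 of the 10 genes (90.0%, interval 55.5 to 99.7), against 43.5% of all protein-coding genes. Within 50 kb the genes had a median of 9 windows (range 3 to 19), against a median of 3 over all genes (0 to 52), and 9 of 10 were above that median, as were 46.6% of all genes. Within 10 kb their median was 3 (1 to 8) against 1, again with 9 of 10 above it and 35.1% of all genes above it. Srf was the exception in both counts, with 3 windows within 50 kb and 1 within 10 kb, and Ier3 alone lacked a promoter window. The start sites were rich in CpG, falling in deciles 6 to 10 of all genes by CpG content, and in those deciles 62.0% to 71.1% of genes had a promoter window. What CpG content adds to the count was not tested.

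**Figure D1:**
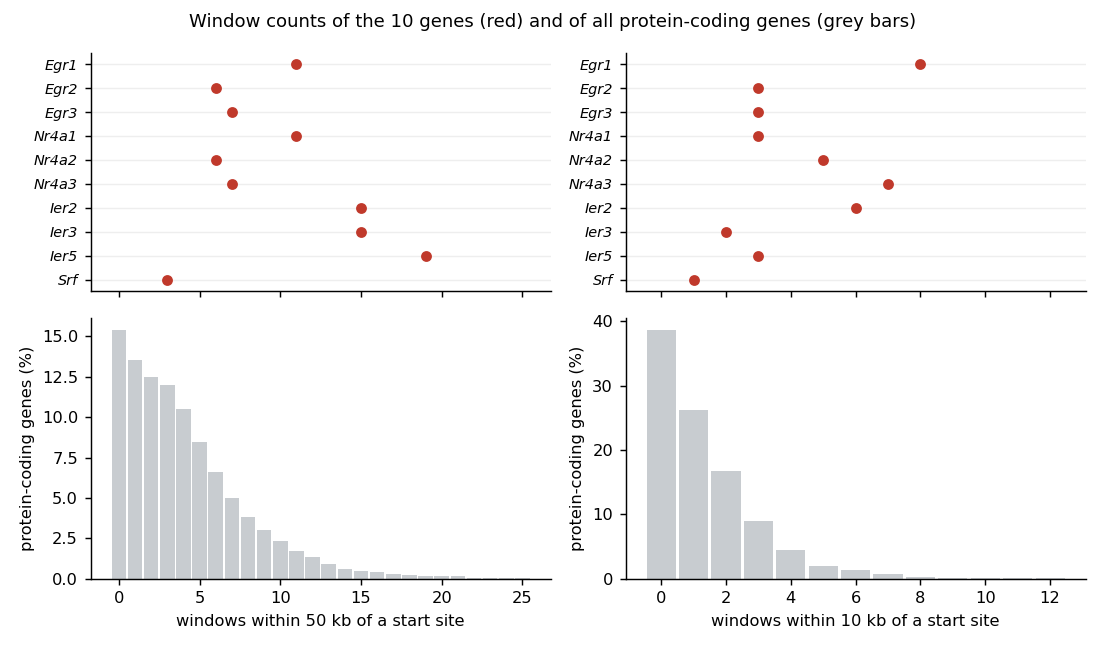
Red points give the number of accessible windows within 50 kb (left) and within 10 kb (right) of the start sites of each of the 10 genes, and grey bars give the percentage of all 22350 protein-coding genes with each count, drawn up to 25 and 12 windows. Ier5 has the most windows within 50 kb (19) and Egr1 the most within 10 kb (8), while Srf has the fewest in both.

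The 100 windows fell in 5 kinds of place. The genes' own promoters held 17 and their own bodies 11, promoters of other genes held 23, bodies of other genes 21, and 28 were intergenic. For 74 of the 100 no other protein-coding start site lay between the window and the gene. By GC content the windows were richer than the list as a whole (median 55.1% against 49.8%), and 40 of 100 lay within 1 kb of some start site, against 26.6% of all windows. The median CpG count of the genes' own promoter windows was 33 per window, near the 31 of all windows within 1 kb of a start site.

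**Figure D2:**
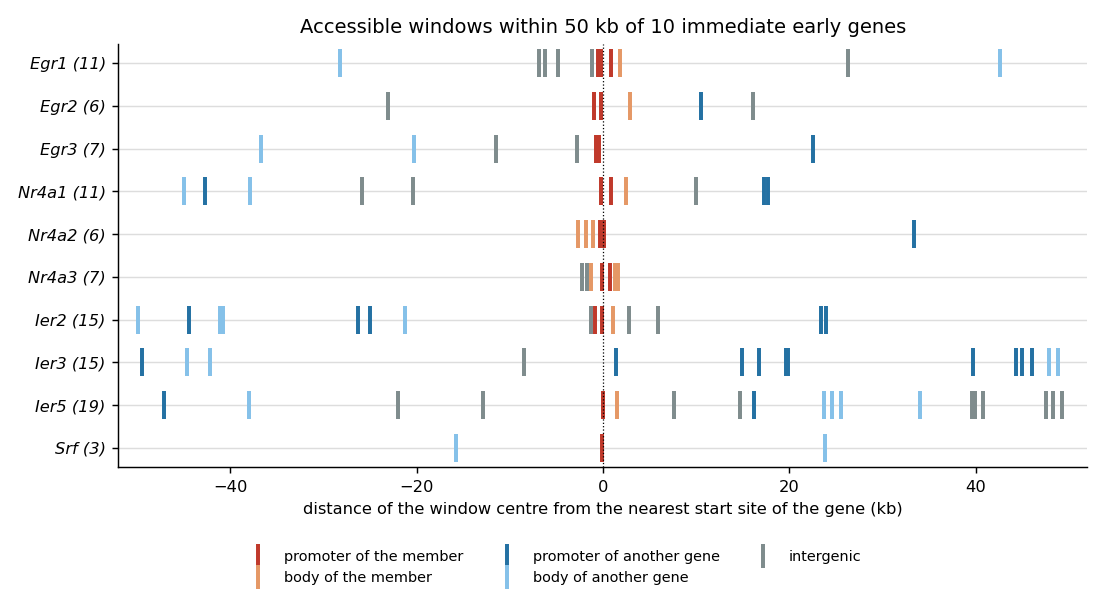
Each tick is the centre of a 500-bp accessible window, placed by its distance in kb from the nearest start site of the gene (negative is upstream), with the number of windows in brackets and the colour giving the kind of place. Windows of Egr1, Nr4a2 and Nr4a3 gather near start sites, and those of Ier3 and Ier5 spread to the limits of the 50 kb. Nr4a2 and Nr4a3 have 4 annotated start sites each, drawn here at 1 place.

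Among the EGR genes, Egr1 (chr18:35020861-35024638, plus strand) is a zinc finger factor that growth factors induce in nearly every cell type. It had 11 windows within 50 kb and 8 within 10 kb, and only 0.850% of protein-coding genes had as many within 10 kb. These 8 ran from -6904 to 1855 bp without another gene's promoter among them. Of the 8, 3 were promoter windows and 1 lay in the coding exon. Upstream of these, 4 intergenic windows lay at -6904, -6195, -4857 and -1126, and the first 2 of them held the AP-1 word TGAGTCA or its reverse complement TGACTCA, at -6773 and -6394. The other windows were in Kdm3b at -28179, in Etf1 at 42579 and between genes at 26346.

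Egr2 (chr10:66998223-67004936, plus strand), a factor known from hindbrain, Schwann cell and macrophage biology, had 6 windows. Its promoter windows were centred at -952 and -199, both inside an intron of the longest annotated transcript, and another window lay over an exon annotated as untranslated at 2902, with an AP-1 word at 3066. Egr3 (chr14:70477252-70479964, plus strand), a relative with roles in muscle spindles and lymphocytes, had 7 windows, of which those at -764 and -371 overlapped at its promoter. Upstream of Egr3, windows lay between genes at -2790 and -11502, and 2 were in introns of Pebp4 at -20312 and -36711. Both genes had one window at a neighbour's promoter, that of Ado for Egr2 and of Bin3 for Egr3. As many windows within 50 kb were found at 27.6% of all genes for Egr2 and at 21.0% for Egr3, so neither stood apart in number alone.

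The NR4A receptors differed in how their windows lay. Nr4a1 (chr15:101097277-101105223, plus strand), also known as Nur77 and induced by antigen receptor signals, had 11 windows, of which 3 were within 10 kb, at -199, 911 and 2437. The remaining 8 lay from -44985 to 17732 and included the shared promoter of Grasp and A330009N23Rik at -42720 and the promoter of 9430023L20Rik at 17233 and 17732. Nr4a2 (chr2:56959241-56976414, minus strand), also known as Nurr1 and needed for midbrain dopamine neurons, had 6 windows, and 5 of them lay within 10 kb, in or just before its own body. Nr4a3 (chr4:48058025-48099319, plus strand), also known as Nor1, had 7 windows, all within 5 kb of a start site. Measured from the nearest of its 4 annotated start sites they lay from -2274 to 1655. On the chromosome they ran from 48055502 to 48066025. No other protein-coding gene started within 50 kb of Nr4a2 or Nr4a3, and among genes with no such neighbour the median was 2 windows within 50 kb. Of those genes 13.3% had as many as Nr4a2 and 9.56% as many as Nr4a3.

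The IER genes had the largest counts within 50 kb, much of them at other genes. Ier2 (chr8:87185230-87186751, minus strand) is a small nuclear protein gene induced by serum. It had 15 windows, of which 6 were within 10 kb, at 5881, 2833, 1107, -111, -904 and -1232. Of the rest, 5 were at promoters of Cacna1a, Nacc1, Trmt1 and Nfix. Those of Cacna1a and Nfix were at start sites inside the gene, whose outermost start sites lie at 274412 and -137492 bp from Ier2. Ier2 lies on chromosome 8, where 51.8% of the called peaks were kept in the list. On the chromosomes of the other 9 genes 23.6% to 25.6% were kept, so its count is not on the same footing as theirs.

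Ier3 (chr17:35958629-35959868, plus strand), also known as IEX-1 and tied to cell survival and NF-kB signalling, also had 15 windows but no promoter window. The nearest window, at 1376, was at the promoter of its neighbour Flot1, and 10 of its 15 windows were at promoters of other genes, among them Tubb5, Mdc1 and Nrm. The lone intergenic window that was at no promoter, at -8513, held an AP-1 word at -8282. Ier5 (chr1:156943497-156946766, minus strand), a gene linked to heat shock factor and serum response, had 19 windows, a number reached by 0.738% of all genes and by 0.476% of genes with 1 other coding gene nearby. Of these, 10 were intergenic, 4 were in introns of the noncoding gene Gm9530 and 1 was at its promoter. In contrast to Ier3, 1 of the 19 was at Ier5's own promoter (-8) and 1 over its own exon (1468).

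Srf (chr17:46683788-46693111, minus strand), which encodes the serum response factor itself, had 3 windows, the fewest of the 10 genes. One was its promoter window, centred at -150. The others lay at 23807, in Cul9, and at -15774, in Ptk7. As many windows were found at 58.6% of all genes.

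By the authors' methods the list keeps the windows of lowest q. The share of called peaks kept was not even, however. It was 41.5% to 51.8% on chromosomes 7, 8, 9 and X, and 23.6% to 26.5% on the others. Why they differ was not tested, so a kept share is not a plain ranking by signal. Peak names carry a running number, so the peaks that were called but not kept can be counted between the first and the last kept peak of a locus. At the 9 genes on chromosomes kept evenly, 62 of 139 such peaks were kept (44.6%), against 33.3% summed over the 9311 protein-coding genes on those chromosomes that allow the count. Egr1 (8 of 13) and Nr4a3 (4 of 7) kept the largest shares of these 9 genes, and Srf kept 1 of 9. At Ier2, 13 of 20 were kept.

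The CArG box, the site of SRF, was found more often in the windows of these genes than in the list. It was present in 9 of the 100 windows (9.00%, interval 4.20 to 16.4) and in 2.38% of all windows. Within 1 kb of any start site the share was 17.5% (7 of 40, interval 7.34 to 32.8) against 1.98%, and farther away 3.33% (2 of 60) against 2.53%. The words lay at 13 distinct sites, 5 at Egr1, 2 at Egr2, 3 at Egr3, 1 at Ier3 and 2 at Srf, and none of the 24 NR4A windows held one, which allows a share of up to 12.5%. Overlapping windows share a site at Egr1 and at Egr3, so the 9 windows are not 9 separate finds. Counted by gene, so that overlap plays no part, 4 of the 9 genes with a promoter window had a CArG box in it (44.4%, interval 13.7 to 78.8), namely Egr1, Egr2, Egr3 and Srf, against 2.58% of the 9720 genes with a promoter window (251 genes). Egr1, Egr2 and Egr3 had more than 1 promoter window each, and the part this plays in the share was not tested.

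Several boxes in 1 window were rarer still. At least 3 boxes were found in 2 windows of the whole list, and these were the overlapping pair at the Egr1 promoter, whose 5 boxes lie at -403, -365, -349, -101 and -79. At least 2 boxes were found in 21 windows of the list (0.0420%), 4 of them here, at Egr1, Egr2 and Srf. The remainder, named after their values were seen, lay at the promoters of Dusp5, a MAP kinase phosphatase (2 overlapping windows), Pitpna and Rexo2, or over 1 kb from any start site. The nearest genes of the latter ranged from Klf6, at 2167 bp, to Rora, at -171998 bp. Between these in distance were Mtus1, 3110009E18Rik, Herpud1, Ceacam18, Znrf1, Cbx8, Palld, Itpkb, D630013G24Rik, Gm6724 and Dock3. A CArG box and the Ets core CCGGAAG anywhere in the same window were found in 61 windows of the list (0.122%), 2 of them at Egr1 and Srf. The count sets no spacing or order, so it is not a count of serum response elements. At Egr1 the Ets core lay at -317 and the nearest box at -349, and at Srf they lay at -119 and -77. Most boxes stood off the centre of their window, which is the summit of the signal. In the central 200 bp a box was found in 2 of the 100 windows (2.00%) and in 0.976% of all windows.

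**Figure D3:**
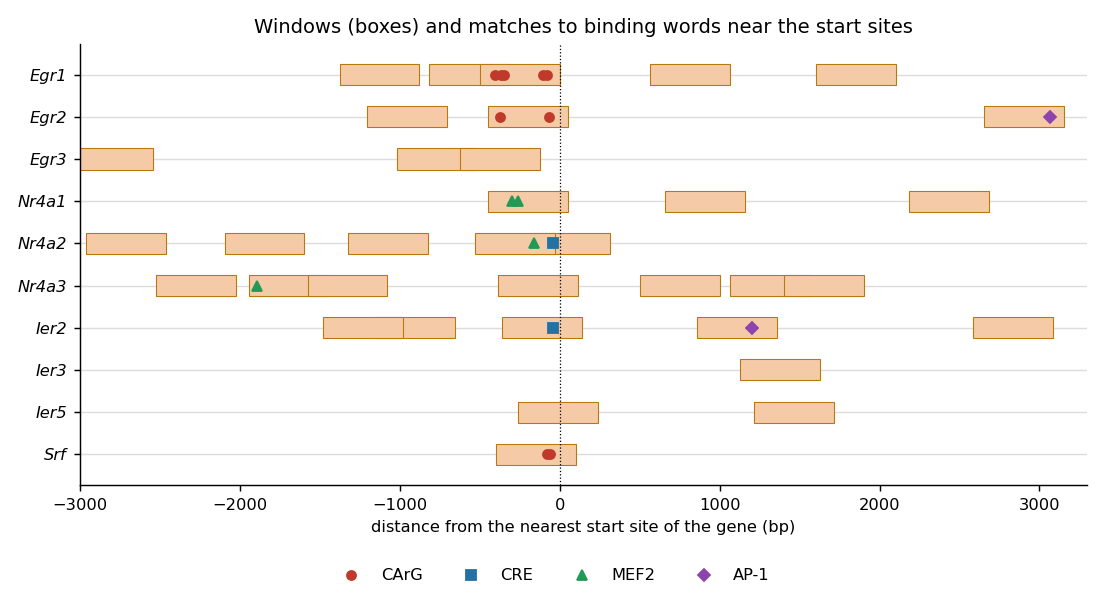
Boxes are accessible windows and symbols are matches to the CArG, CRE, MEF2 and AP-1 words inside them, by distance in bp from the nearest start site of each gene (negative is upstream), so windows at different start sites of 1 gene are drawn on 1 scale, and with no symbols drawn for Egr3. CArG boxes lie before the start sites of Egr1, Egr2 and Srf, MEF2 words before those of the NR4A genes, and the CRE within 50 bp of start sites of Nr4a2 and Ier2.

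The complete CRE was found in 3 of the 100 windows (3.00%, interval 0.623 to 8.52), against 1.37% of all windows, and the interval includes that value. The one not shown above was in 4833427F10Rik, at -44724 from Ier3. The short word TGACG was found in 34.0% of the windows (interval 24.8 to 44.2) against 24.4%. Split by place, the intervals include the share of the list, with 45.0% (29.3 to 61.5) against 40.2% within 1 kb of a start site and 26.7% (16.1 to 39.7) against 18.7% farther away. By gene, TGACG was present in a promoter window of all 9 genes that have one (lower limit of the interval 66.4%), and in 52.0% of the 9720 genes. Most of the 9 genes had more than 1 promoter window, and the part this plays in the count was not tested. The GC box GGGCGG was likewise at 9 of 9, against 77.7%. In the lists described below, TGACG was at 7 of 7 JUN and FOS genes and 14 of 19 other immediate early genes. It was at 8 of 11 feedback genes, 9 of 18 input genes and 2 of 3 partners. MEF2 words were found in 6.00% of the windows and in 4.72% of all, and by gene they were at 2 of 9 promoters, Nr4a1 and Nr4a2 (22.2%, interval 2.81 to 60.0), against 2.86% of genes with a promoter window, which the interval includes. The variant EGR word GCGGGGGCG was found in 6 windows (6.00%, interval 2.23 to 12.6) against 1.78%, among them promoter windows of Egr1, Nr4a1 and Srf. Split by place, the intervals include the share of the list, with 12.5% (4.19 to 26.8) against 5.70% within 1 kb of a start site and 1.67% (0.0422 to 8.94) against 0.352% farther away. The classical EGR word GCGTGGGCG was found in 0 of 100, which allows up to 3.00%, against 0.504% of all, so the number of windows could not show a difference. The NR4A word AAAGGTCA was found in 1 window, near Ier5, against 2.44% of all.

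AP-1, the word bound by JUN and FOS dimers, was no more frequent here than elsewhere. It was found in 13 windows (13.0%, interval 7.11 to 21.2), against 13.5% of all windows. Split by place its share was 7.50% against 7.77% within 1 kb of a start site, and 16.7% against 15.6% farther away. No own promoter window of the 10 genes held it, 0 of 17, which allows up to 17.6%. These windows are thus too few to show a difference from 7.77%. None of the 24 NR4A windows held it, which allows up to 12.5%, nor did any of the 3 windows of Srf. Windows with the word numbered 4 each at Ier3 and Ier5, 2 at Egr1, and 1 each at Egr2, Egr3 and Ier2. The sites outside Egr1 that lie away from the start sites are shown by examples, with AP-1 words (or, in the Ier3 line named CArG, that box) in capitals.
Ier5 AP-1, chr1:156898430-156898515, minus strand: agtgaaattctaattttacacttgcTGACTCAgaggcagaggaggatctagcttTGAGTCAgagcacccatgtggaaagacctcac
Ier5 AP-1, chr1:156921254-156921310, minus strand: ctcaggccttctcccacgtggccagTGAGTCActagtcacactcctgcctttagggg
Ier5 AP-1, chr1:156939257-156939313, minus strand: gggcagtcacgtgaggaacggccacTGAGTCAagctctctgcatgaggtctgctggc
Ier3 AP-1, chr17:35950319-35950375, plus strand: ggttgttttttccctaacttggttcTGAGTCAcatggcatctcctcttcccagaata
Ier3 CArG, chr17:36004868-36004927, plus strand: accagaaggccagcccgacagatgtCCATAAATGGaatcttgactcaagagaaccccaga
Ier2 AP-1, chr8:87185535-87185557, minus strand: aagtgactTGAGTCAcctcgccc
Egr3 AP-1, chr14:70456958-70457014, plus strand: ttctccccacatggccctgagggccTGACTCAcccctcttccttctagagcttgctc
The first Ier5 stretch is the only window here with 2 AP-1 words, at 48308 and 48279 bp downstream of the start site. In the Ier3 window at 46053, at the promoter of 5530401N12Rik, a CArG box at 46268 and an AP-1 word at 46282 stand side by side. The Ier2 word lies in its own exon, at 1205.

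The NF-kB word searched was GGGRNNYYCC, where R is A or G, Y is C or T, and N is any base. It was found in 15 windows (15.0%, interval 8.65 to 23.5) and in 12.4% of all. The word also takes GC-rich strings, and the matches at Nr4a1 included GGGGCTCCCC and GGGGGCCCCC. Nr4a1 held the word in 5 of its 11 windows, Ier2 in 3 of 15, and Nr4a3 and Ier5 in 2 each. Words in the window over the Ier5 exon, and 1 of the words in windows downstream of Ier2, are shown in capitals.
Ier5 NF-kB, chr1:156945269-156945294, minus strand: tgcagacaGGGACTTTCCtctgccag
Ier5 NF-kB, chr1:156945212-156945239, minus strand: tcgaggaaGGGGAGTTCCCCgttcgatc
Ier2 NF-kB, chr8:87183985-87184044, minus strand: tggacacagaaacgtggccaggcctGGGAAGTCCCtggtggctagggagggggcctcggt
The second Ier5 line merges 3 overlapping matches, centred from 1540 to 1542.

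Among the other words, the Ets core stood at 15.0% against 7.28%, and the GC box GGGCGG, bound by SP factors, at 43.0% against 25.5%. Within 1 kb of a start site both were near the list's own share (17.5% against 18.2% and 65.0% against 64.3%). Farther away they were above it, at 13.3% (interval 5.94 to 24.6) against 3.32% for Ets and 28.3% (17.5 to 41.4) against 11.5% for the GC box. The windows of these genes are richer in GC, as given above, and the part of base composition in these shares was not tested. RUNX (TGTGGT, 25.0% against 33.4%), TATA (12.0% against 19.3%), TEAD (GGAATG, 20.0% against 24.3%), PU.1 (GAGGAAGT, 4.00% against 4.96%) and HIF (ACGTGC, 9.00% against 8.60%) had intervals that include the share of all windows. Split by place, TATA stood at 12.5% (4.19 to 26.8) against 9.96% within 1 kb of a start site. Farther away it stood at 11.7% (4.82 to 22.6) against 22.7%, just above that interval. The CTCF word was found in none of the 100, which allows up to 3.00%, against 1.18%.

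**Figure D4:**
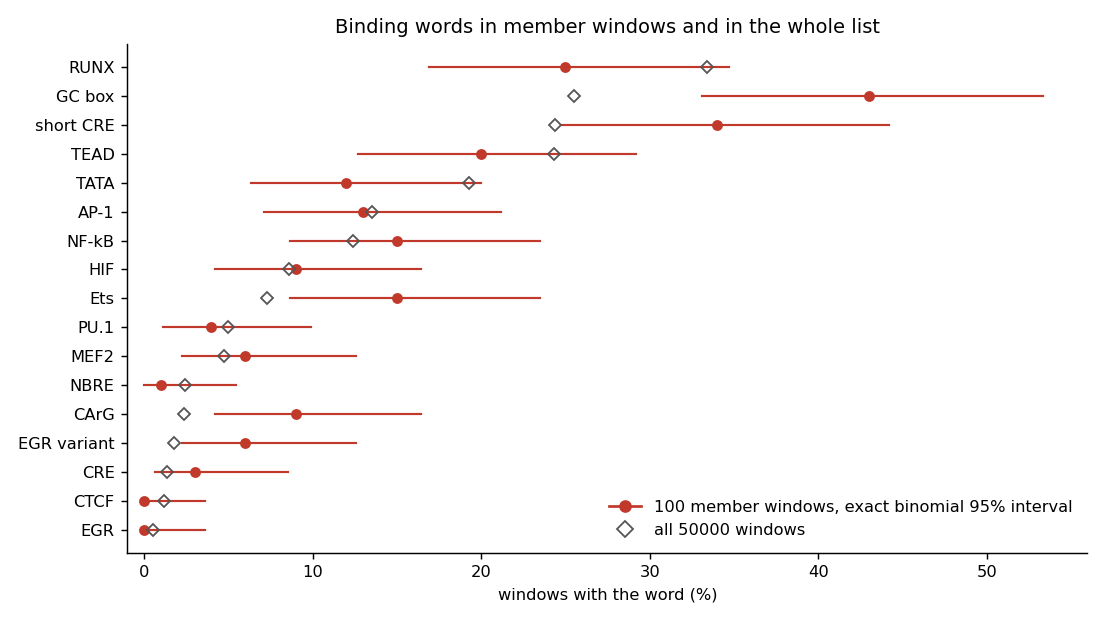
Red points give the percentage of the 100 windows near the 10 genes that hold each word, with exact binomial 95% intervals, and open diamonds give the percentage of all 50000 windows. The diamond lies below the interval for the CArG box (9.00% against 2.38%), Ets, the GC box, the EGR variant and, narrowly, the short CRE, and inside it for AP-1 (13.0% against 13.5%).

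The pathway around these genes was described with 5 lists. Of 7 partners and relatives, 3 had a promoter window (42.9%), namely Nab2, a corepressor of EGR proteins, and the retinoid X receptors Rxrb and Rxrg, dimer partners in the receptor family of NR4A. Egr4, the remaining EGR gene, had none and only 2 windows within 50 kb, while Rxra had 8 windows without one at its promoter. Of 20 kinases and factors that feed into serum response and CRE sites, 18 had a promoter window (90.0%), Mapk14 and Atf1 lacking one, with a median of 6 windows within 50 kb. Crem and Rps6ka3 had 3 promoter windows each, but Rps6ka3 is on chromosome X, where 46.3% of called peaks were kept. Elk1, Map2k1, Mapk3 and Mef2a of this list are also on chromosomes 7, 9 or X, where more peaks were kept.

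Other induced genes were close to the 10 genes in number of windows. Of 20 other immediate early genes 19 had a promoter window (95.0%), Cyr61 lacking one, with a median of 9.5 windows and 18 each at Klf6 and Zfp36, the latter on chromosome 7, where 41.5% of called peaks were kept. All 7 JUN and FOS genes had one, with a median of 12 windows (6 to 23), though Junb, Jund and Fosb, which lead that list, are on chromosomes 7 and 8, where more peaks were kept. Of 12 MAP kinase feedback genes 11 had one, Spry1 lacking it, with a median of 8. The CArG box at promoter windows differed between the lists. It was found at 2 of 7 JUN and FOS genes (Fos and Fosb), at 1 of 11 feedback genes (Dusp5), and at 0 of 19 other immediate early genes, 0 of 18 input genes and 0 of 3 partners. The lists are small and the intervals wide (3.67% to 71.0% for JUN and FOS, up to 17.6% for the other immediate early genes), and no difference between lists was tested.

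**Figure D5:**
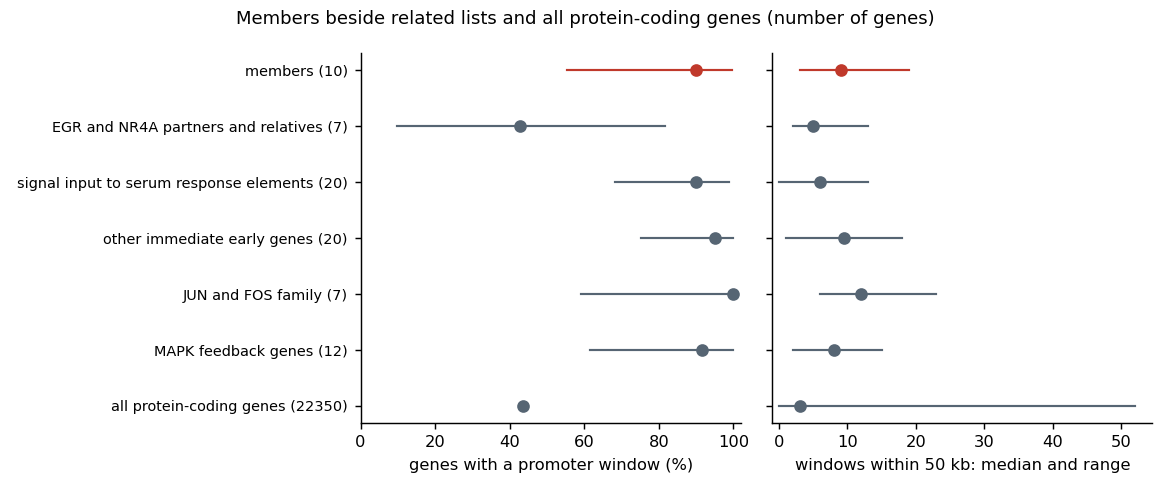
Left, the percentage of genes with a promoter window in each list, with exact binomial 95% intervals. Right, the median (point) and range (line) of windows within 50 kb, for the 10 genes (red), the 5 lists and all protein-coding genes, with the number of genes in brackets. The 10 genes (90.0%, median 9) sit beside the other immediate early genes (95.0%, median 9.5), and all genes are at 43.5% with a median of 3.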

How the data were processed

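Cells of 1 tumor in 384 wells were measured by Pi-ATAC and form 1 group. The deposited file gives, in a unit classed as other, positions of windows that the authors called. As the methods and labels state, reads were trimmed, mapped to mm9 with Bowtie2 2.1.0, cleared of duplicates with Picard 1.79 and of low-quality and mitochondrial reads. MACS2 (version not given in the sources used here) called summits on aggregated cells at q 0.05, widened to 500 bp. By the methods the 50000 of lowest q were kept, though the share of called peaks kept differed between chromosomes. The depth behind each window is unknown, since no count or score is given, though the methods state an average number of reads per cell.

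Windows were placed by their centre against GENCODE vM1 start sites on the NCBIM37 genome, counting positions from 1, and 17 words were searched on both strands. Python 3.11.15, numpy 2.4.6, scipy 1.17.1 and matplotlib 3.10.9 were used, and the steps were tested on simulated data. The members and lists were chosen with earlier results of these data known. Named genes are the members, the 5 lists and genes whose promoter or body a member window touches, besides the label check and those named as chosen after their values were seen. Alternatives changed the promoter distance, the transcripts, the reach, overlapping windows, the part of the window, the place class, the CpG class and the loci used. The letters and places of some sites near Egr3 are not reported here.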

Additional observations from a re-analysis of the deposited data

How the results depend on the processing

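The list has no replicates, scores or counts, so no paired analysis was possible because the result comes from no test, and the wells of the single group are pooled. A window says only that the aggregate of cells was open there, and the number of cells behind it is unknown. Reach set the counts. The 10 genes had 41 windows within 10 kb and 66 within 25 kb, with a median of 3 at 10 kb and 14.5 at 100 kb, against medians over all protein-coding genes of 1 and 6 (the reaches for all genes were added after seeing the data). Among genes in the highest decile by CpG content 71.1% had a promoter window. In the central 200 bp of windows the shares were 7.00% for AP-1 (6.88% of all windows) and 2.00% for the CArG box (0.976%), and the CArG share was 17.5% within 1 kb of any start site and 3.33% farther away. The other 57 recomputed values, among them those without the chromosome 8 locus (added after seeing the data), stayed within 1.5 times the count or within the interval of the share.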
